A study of Mus musculus with 12 samples.

Results

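The genes described here are 47 listed by symbol as working in G2 and mitosis, in kinetochores, in the spindle and in cytokinesis, out of 55367 genes in the deposited count table. All 47 passed the filter on low counts, which 17076 genes passed, and each held 94 counts or more in every library. The libraries came from organoids of mouse tongue, which are three-dimensional epithelial cultures, from foliate papillae (FoP) and circumvallate papillae (CVP), both at the back of the tongue. In FoP organoids there were 4 libraries labelled as Foxe1 knock-out, namely clones 2.5 and 2.4 in duplicate, and 2 wild type libraries. In CVP organoids there were 4 libraries labelled as Foxe1 knock-out, namely clones 2.10 and 2.9 in duplicate, and 2 wild type libraries. Foxe1 encodes a forkhead transcription factor. Each knock-out clone is 1 line, and the labels name no clone for wild type, so genotype and derivation of a clone cannot be told apart. Nothing in the labels says that duplicates came from separate cultures, so p-values measure the spread between these libraries, which may be technical.

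Entry into mitosis is driven by cyclin-dependent kinase 1 bound to cyclins A and B, and is followed by spindle assembly, attachment of chromosomes through kinetochores, release of sister chromatids and division of the cytoplasm. Most genes of this machinery are transcribed in waves that peak in G2 and mitosis. In the tongue epithelium, dividing cells lie in the basal layer and supply keratinocytes, taste cells and gland cells. In bulk RNA, fewer cells of a type and less RNA per cell cannot be told apart.

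In human and mouse cells, many mitotic genes carry in their promoters a short element called CHR (cell cycle genes homology region) and CCAAT boxes, which are bound by the DREAM and MuvB complexes and by NF-Y. RefSeq promoter windows (GRCm38.p6) reaching from 250 bases before the start to 50 bases after it were found for 39 of the 47 genes, in 42 windows; the others are Pbk, Cdc25c, Spc24, Ccna2, Incenp, Aurkb, Kif20a and Tpx2. Of these windows, 6 stretches are printed. They belong to the genes with the largest falls in FoP knock-out, described further on, among those whose stretch holds both elements. Each runs from 150 bases before the start to 30 bases after it. The capitals mark CHR letters (TTTGAA or TTCGAA) and CCAAT letters on either strand. Bub1 and Ttk encode checkpoint kinases, Kif11 a spindle motor, Hmmr a spindle protein, Ect2 a cytokinesis factor and Cdca8 borealin of the chromosomal passenger complex. The stretches are chr2:127831830-127832009 (minus strand) for Bub1, chr19:37376232-37376411 (plus strand) for Kif11, chr9:83834539-83834718 (plus strand) for Ttk, chr11:40733408-40733587 (minus strand) for Hmmr, chr3:27153849-27154028 (minus strand) for Ect2 and chr4:124936888-124937067 (minus strand) for Cdca8.
Bub1: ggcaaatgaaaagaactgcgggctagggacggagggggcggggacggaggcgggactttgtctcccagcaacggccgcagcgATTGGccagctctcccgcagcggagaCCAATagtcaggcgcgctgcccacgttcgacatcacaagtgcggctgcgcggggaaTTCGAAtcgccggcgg
Kif11: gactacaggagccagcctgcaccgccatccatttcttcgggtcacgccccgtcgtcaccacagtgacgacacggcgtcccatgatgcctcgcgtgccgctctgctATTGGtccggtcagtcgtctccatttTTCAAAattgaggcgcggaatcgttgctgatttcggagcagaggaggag
Ttk: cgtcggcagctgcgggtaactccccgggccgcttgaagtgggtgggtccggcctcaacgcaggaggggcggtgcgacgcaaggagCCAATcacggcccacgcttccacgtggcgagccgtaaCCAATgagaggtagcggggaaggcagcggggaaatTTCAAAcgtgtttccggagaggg
Hmmr: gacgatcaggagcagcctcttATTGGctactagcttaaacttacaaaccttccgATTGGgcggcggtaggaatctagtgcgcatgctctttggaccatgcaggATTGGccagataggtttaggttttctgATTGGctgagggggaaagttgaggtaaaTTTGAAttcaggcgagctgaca
Ect2: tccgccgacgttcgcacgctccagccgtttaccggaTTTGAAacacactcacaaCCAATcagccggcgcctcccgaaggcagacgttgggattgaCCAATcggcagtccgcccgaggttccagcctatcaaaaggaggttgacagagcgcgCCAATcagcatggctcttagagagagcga
Cdca8: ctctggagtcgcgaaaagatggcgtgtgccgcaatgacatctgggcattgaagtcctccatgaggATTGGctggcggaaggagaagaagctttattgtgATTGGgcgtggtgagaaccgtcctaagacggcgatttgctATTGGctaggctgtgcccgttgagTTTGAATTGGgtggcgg
In Bub1, Kif11, Ttk and Hmmr the CHR letters lie within 50 bases of the start and the CCAAT letters before them. In Cdca8 the CHR letters follow 3 CCAAT boxes and overlap another, the one farthest downstream. In Ect2 the CHR letters shown precede the CCAAT letters, but the window of that gene holds another match at position 40 after the start, past the end of the printed stretch and after the CCAAT letters.

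Over all 42 windows, CHR letters stood in 35 (83.3%), against 14.2% of 14819 windows of the genes tested and 19.2% of all 32851 windows. CCAAT letters stood in 73.8% of the members' windows, against 37.6% of the windows of the genes tested and 37.4% of all windows. Both were found in 66.7% of the members' windows, against 5.83% of windows of the genes tested and 7.53% of all windows. Within 50 bases of the start, CHR letters stood in 33 of the 42 windows (78.6%), against 3.73% of windows of the genes tested. The 7 genes whose windows held no CHR letters were Birc5, Ccnb1, Cenpe, Mad2l1, Nek2, Nuf2 and Nusap1. Their log2 fold changes between FoP knock-out and wild type were -2.26 to -1.40 with a median of -1.97, and those of the 32 genes with CHR letters were -2.28 to -1.45 with a median of -1.99, so the ranges overlap. These matches describe letters in a window and show no binding.

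**Figure D1:**
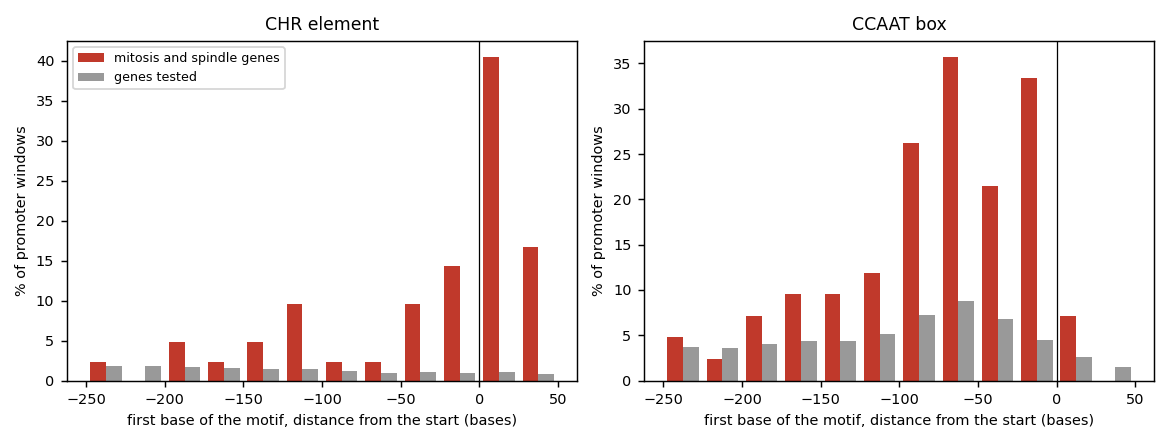
Position of CHR letters (left) and CCAAT letters (right) in RefSeq promoter windows; the x axis gives the distance of the first letter from the start in bases, in bins of 25 bases, and the y axis the percentage of windows with a match in the bin, in red for the mitosis and spindle genes and in grey for the genes tested. CHR letters are most frequent in the bin just after the start, with 40.5% of the members' windows against 1.03% of the windows of the genes tested.

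Totals were 59.3 to 73.6 M counts per library, and 21421 to 22602 genes were detected. Levels are given as CPM (counts per M) of a library size scaled by TMM, the trimmed mean of M values. Foxe1 RNA was not lower in all clones labelled as knock-out: it was 11.2 and 11.5 CPM in clone 2.5 and 22.4 and 20.0 CPM in clone 2.4, against 16.3 and 16.0 CPM in FoP wild type. It was 7.33 and 8.46 CPM in clone 2.10 and 23.7 and 22.7 CPM in clone 2.9, against 15.4 and 15.9 CPM in CVP wild type. A gene-level count does not show whether the coding sequence was changed, so the genotypes here are those of the labels. The epithelial markers were high in all libraries, with Epcam at 1029 to 1577 CPM and Krt5 at 3885 to 6538 CPM. Of 7 such markers, 1 rose and 1 fell in FoP, and 2 rose and 3 fell in CVP. Krt14 was at 3830 to 5422 CPM in CVP knock-out libraries, against 1878 and 1687 CPM in CVP wild type. Krt18 was at 462 to 613 CPM in CVP knock-out libraries, against 838 and 762 CPM in CVP wild type. Of the defining markers of other cell types, Ptprc of leukocytes and Lum of fibroblasts were at 0 in all 12 libraries, while others were present at up to 14.4 CPM and moved with genotype. The summed level of 7 immune markers was 4.32 to 5.46 CPM in FoP knock-out, 12.1 to 14.6 CPM in FoP wild type, 1.49 to 2.49 CPM in CVP knock-out and 13.5 to 14.6 CPM in CVP wild type, nearly all of it Cd68. That of 7 fibroblast markers was 4.47 to 6.66 CPM in FoP knock-out, 3.95 to 5.84 CPM in FoP wild type, 5.46 to 9.86 CPM in CVP knock-out and 5.21 to 5.36 CPM in CVP wild type. Of the 5 of these that were tested, 1 rose and 1 fell in FoP and 2 rose and 1 fell in CVP. Pdgfra rose in both lines, with log2 changes of 1.51 in FoP and 2.04 in CVP, and Dcn fell in both, with -1.87 in FoP and -2.11 in CVP. Endothelial markers (5) summed to 2.35 to 3.64 CPM in FoP knock-out, 1.497 to 1.73 CPM in FoP wild type, 2.14 to 3.16 CPM in CVP knock-out and 1.83 to 2.19 CPM in CVP wild type. Of the 3 tested, 1 rose and 2 were not called in FoP, both with negative log2 values. In CVP 1 rose and 1 fell, with a lowest log2 value of -1.83. The marker that rose was Pecam1 in both lines, with log2 changes of 2.62 in FoP and 1.73 in CVP. Nerve and glia markers (5) summed to 1.70 to 2.64 CPM in FoP knock-out, 2.28 to 2.96 CPM in FoP wild type, 2.30 to 6.47 CPM in CVP knock-out and 1.57 to 2.06 CPM in CVP wild type. None of the 4 tested was called in FoP, while 3 rose in CVP, among them Tubb3 with a log2 change of 2.81. Skeletal muscle markers (5) summed to at most 1.16 CPM in any library. The part of these markers in the results below was not tested.

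Summed over the 47 genes, the level was 487 and 503 CPM in FoP clone 2.5 and 378 and 393 CPM in clone 2.4, against 1653 and 1640 CPM in FoP wild type. In CVP it was 552 and 394 CPM in clone 2.10 and 644 and 467 CPM in clone 2.9, against 885 and 854 CPM in CVP wild type. All knock-out libraries were below both wild type libraries of their line. The ratio of the mean sums was 0.267 in FoP and 0.592 in CVP. A FoP wild type library held the highest value of the 12 for each of the 47 genes, the first of the duplicates for 24 of them and the second for 23. The lowest value was in a clone 2.4 library for 35 genes (19 and 16), in the second clone 2.10 library for 11 and in the second clone 2.9 library for 1. How often these libraries held the highest or lowest value over all genes tested was not counted, so these counts have no background.

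**Figure D2:**
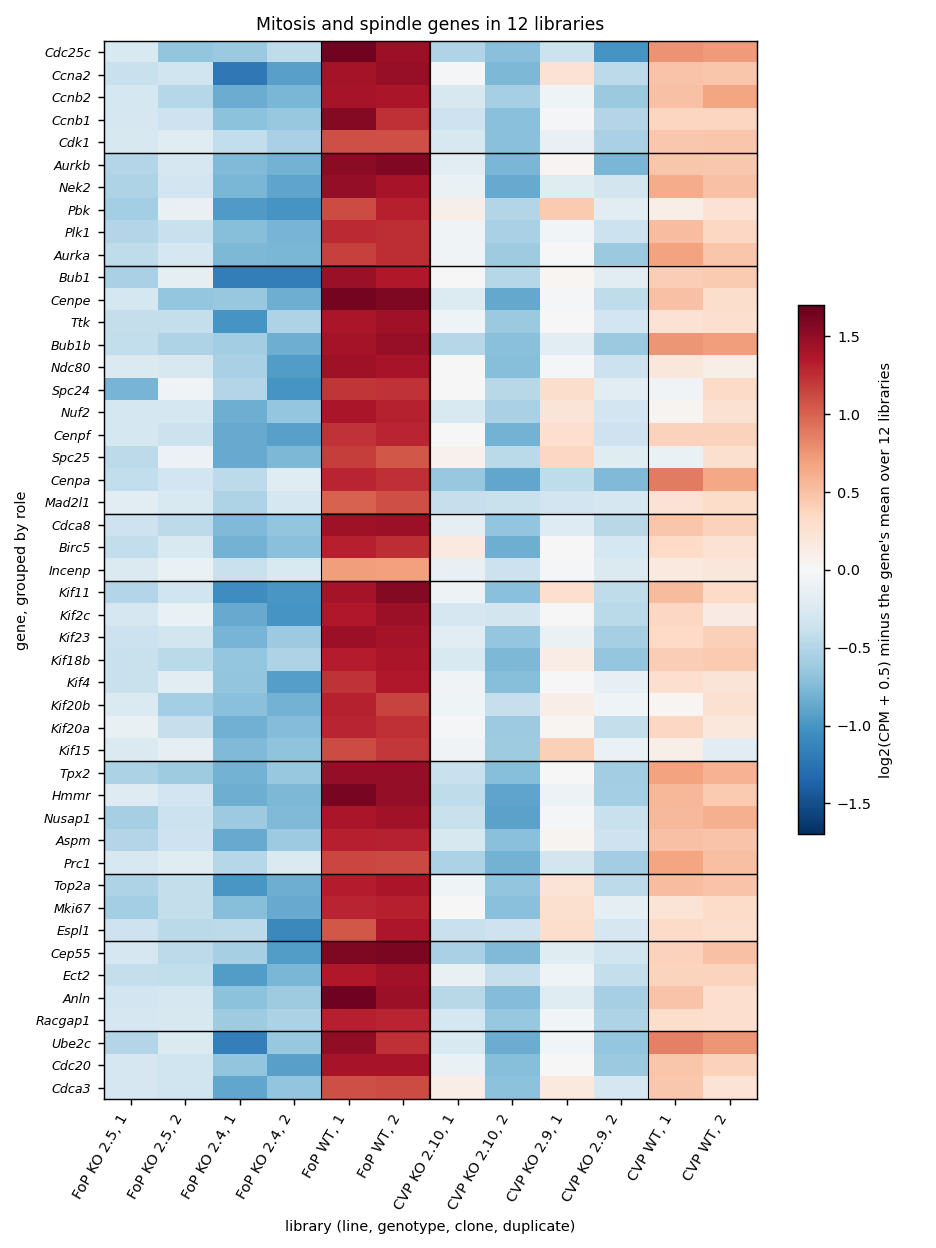
Level of each of the 47 genes (rows, grouped by role) in each of the 12 libraries (columns), as log2(CPM + 0.5) minus the mean of the gene over the libraries; red is above that mean and blue below it. The FoP wild type columns are red in every row, and the CVP wild type columns are red or near white in nearly all rows.

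The first question was how the labelled knock-out libraries differ from wild type in each line. In FoP, all 47 genes fell in the knock-out, with a median log2 fold change of -1.99. The log2 values (± SE) reached from -2.28 ± 0.28 for Bub1 to -0.97 ± 0.09 for Incenp. Of these genes, 46 fell over 2-fold. In edgeR's quasi-likelihood test with Benjamini-Hochberg adjustment, 15.3% of the 17076 genes tested were called lower and 13.5% higher in FoP. The median over all of them was 0.01. For all 47 genes every knock-out library was below both wild type libraries, which held for 25.8% of the genes tested, while 23.9% were above. In CVP, 29 of the 47 genes fell, none was called higher and 18 were not called, with a median of -0.71. There, 22.9% of genes tested were called lower and 23.5% higher, with a median of 0.03. The CVP values reached from -1.57 ± 0.20 for Cdc25c to -0.01 ± 0.26 for Kif15, and 7 genes fell over 2-fold. Every CVP knock-out library was below both wild type libraries for 40 of the 47 genes, against 30% of the genes tested below and 31.7% above. With the duplicates of each clone and each wild type summed to 1 library, the median log2 fold change of the 47 genes was -1.99 in FoP and -0.71 in CVP.

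The duplicates of the CVP clones did not agree for these genes. Of the 47 genes, 45 were higher in the first clone 2.10 library than in the second and 46 in the first clone 2.9 library, with median absolute log2 differences of 0.49 in clone 2.10 and 0.45 in clone 2.9. That difference was 0.11 for clone 2.5, 0.13 for clone 2.4, 0.06 for FoP wild type and 0.09 for CVP wild type. Over all genes tested, the duplicates of the CVP clones also differed most beyond sampling noise. The chi-square per degree of freedom was 37.3 in clone 2.10 and 18.1 in clone 2.9, and 7.65 to 15.2 in the other clones and wild types. The share of all genes tested that were higher in the first duplicate was not counted. Without the first duplicates of both CVP clones 39 genes were called lower with a median of -1.03, and without the second duplicates 26 with a median of -0.50. Total counts of the 4 CVP clone libraries were 61.6 to 64.5 M.

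**Figure D3:**
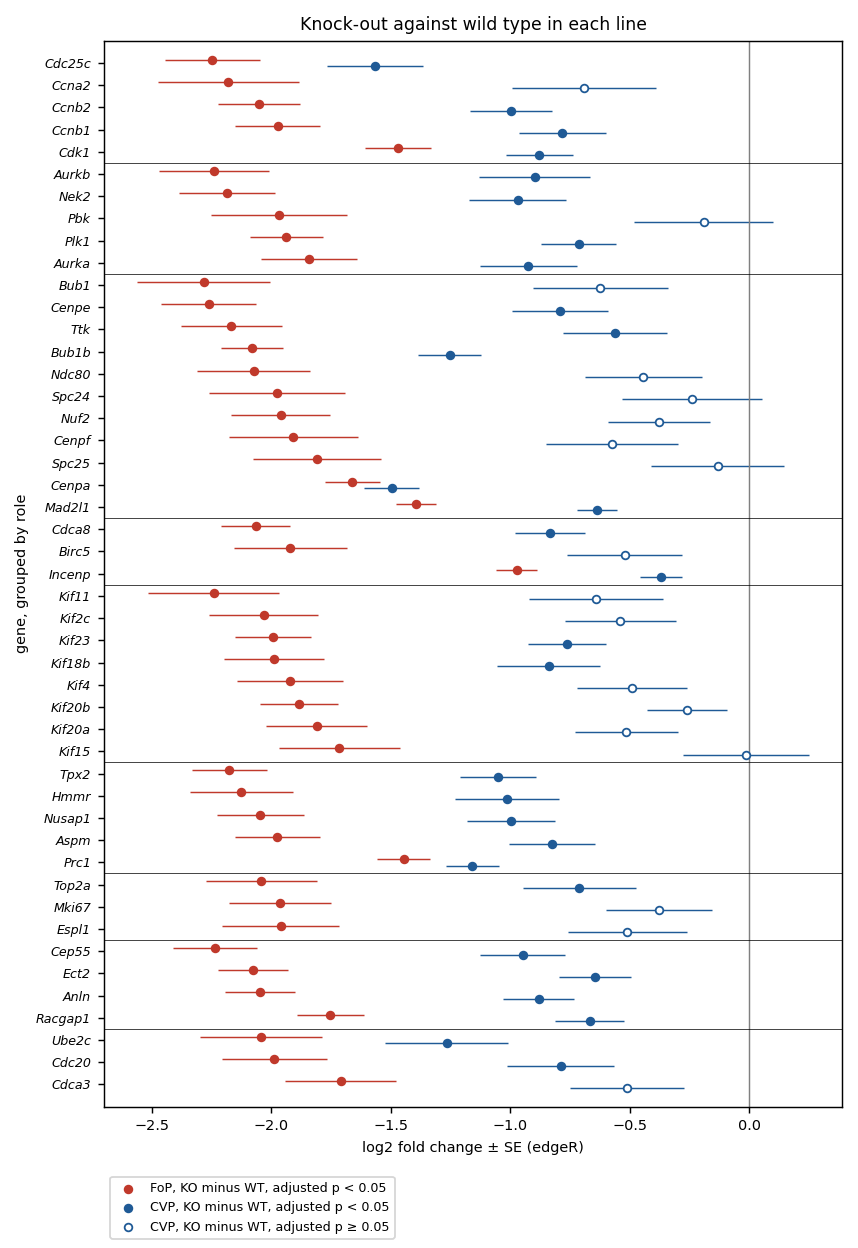
Log2 fold change of knock-out against wild type with its SE (x axis) for each of the 47 genes (y axis, grouped by role), in red for FoP and in blue for CVP; filled points have an adjusted p below 0.05 and open points do not. All FoP points lie at -0.97 or lower, and the CVP points reach from -1.57 to -0.01.

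Among cyclins and the control of CDK1, all 5 genes fell in FoP and 4 of 5 fell in CVP. Cdc25c, the phosphatase that activates CDK1 at mitotic entry, had 2.83 and 2.00 CPM in clone 2.5 and 2.07 and 2.46 CPM in clone 2.4, against 11.9 and 10.4 CPM in FoP wild type. The CVP libraries had 2.29 and 1.93 CPM in clone 2.10 and 2.59 and 1.49 CPM in clone 2.9, against 6.22 and 6.09 CPM in CVP wild type. Its knock-out libraries were below wild type in both lines with no overlap. The log2 fold changes were -2.25 ± 0.20 (adjusted p = 9.81e-06) in FoP and -1.57 ± 0.20 (adjusted p = 4.90e-05) in CVP, and no other member had a larger fall in CVP. Ccnb2, a B-type cyclin, had 8.96 and 7.85 CPM in clone 2.5 and 5.99 and 6.29 CPM in clone 2.4, against 30.2 and 30.1 CPM in FoP wild type. CVP values were 9.11 and 7.41 CPM in clone 2.10 and 10.5 and 7.02 CPM in clone 2.9, against 15.9 and 18.1 CPM in CVP wild type. Ccnb2 fell with log2 changes of -2.05 ± 0.17 (adjusted p = 9.29e-06) in FoP and -1.0 ± 0.17 (adjusted p = 0.000531) in CVP. Ccna2, the cyclin A of somatic cells, had 11.5 and 12 CPM in clone 2.5 and 6.26 and 7.79 CPM in clone 2.4, against 41.4 and 43.5 CPM in FoP wild type. Its CVP levels were 14.9 and 8.75 CPM in clone 2.10 and 18.1 and 11.1 CPM in clone 2.9, against 21.4 and 21.2 CPM in CVP wild type. The knock-out libraries were below wild type, but spread from 8.75 to 18.1 CPM. Ccna2 fell in FoP with -2.18 ± 0.30 (adjusted p = 0.000596), and the CVP value was -0.69 ± 0.30 (adjusted p = 0.0878). Ccnb1 averaged 6.36 ± 0.984 CPM in FoP knock-out libraries and 25 ± 4.08 CPM in FoP wild type libraries (SD, n = 4 and 2). Ccnb1 fell with log2 changes of -1.97 ± 0.18 (adjusted p = 1.28e-05) in FoP and -0.78 ± 0.18 (adjusted p = 0.00353) in CVP. Cdk1 itself fell with log2 changes of -1.47 ± 0.14 (adjusted p = 2.51e-05) in FoP and -0.88 ± 0.14 (adjusted p = 0.000311) in CVP. Ccnb1 and Ccnb2 have pseudogene entries with 0 to 18 and 10 to 95 counts, so some reads of these cyclins may be shared and their values are uncertain to that extent.

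All 5 mitotic kinases fell in FoP and 4 of 5 fell in CVP. Aurkb, the kinase of the chromosomal passenger complex, had 4.94 and 5.85 CPM in clone 2.5 and 4.07 and 3.92 CPM in clone 2.4, against 21.8 and 22.6 CPM in FoP wild type. In the CVP organoids it had 6.26 and 4.02 CPM in clone 2.10 and 7.46 and 4.01 CPM in clone 2.9, against 10.2 and 10.1 CPM in CVP wild type. Every knock-out library was below wild type, and the log2 fold changes were -2.24 ± 0.23 (adjusted p = 4.13e-05) in FoP and -0.90 ± 0.23 (adjusted p = 0.00771) in CVP. Nek2, a kinase that separates centrosomes, had 4.75 and 5.52 CPM in clone 2.5 and 3.91 and 3.56 CPM in clone 2.4, against 20.8 and 19.5 CPM in FoP wild type. Levels in CVP were 6.52 and 3.68 CPM in clone 2.10 and 6.05 and 5.61 CPM in clone 2.9, against 11.2 and 10.2 CPM in CVP wild type. Nek2 fell with log2 changes of -2.19 ± 0.20 (adjusted p = 1.38e-05) in FoP and -0.97 ± 0.20 (adjusted p = 0.00175) in CVP. Plk1, which acts from mitotic entry to cytokinesis, averaged 5.97 ± 0.854 CPM in FoP knock-out libraries and 22.9 ± 0.213 CPM in FoP wild type libraries, and 7.76 ± 1.36 CPM in CVP knock-out libraries and 12.7 ± 1.16 CPM in CVP wild type libraries. The log2 changes of Plk1 were -1.94 ± 0.15 (adjusted p = 4.94e-06) in FoP and -0.71 ± 0.16 (adjusted p = 0.00226) in CVP. Aurka, the kinase of spindle poles, fell with a log2 change of -1.84 ± 0.20 (adjusted p = 5.20e-05) in FoP and -0.92 ± 0.20 (adjusted p = 0.00259) in CVP. Pbk, a kinase active in mitotic cells, was the exception in CVP. It had 7.02 and 4.48 CPM in clone 2.10 and 9.04 and 5.66 CPM in clone 2.9, against 7.13 and 7.83 CPM in CVP wild type, where the first clone 2.9 library lay above both wild type libraries and the other clone libraries below them, with a log2 value of -0.19 ± 0.29 (adjusted p = 0.626). In FoP it had 4.23 and 5.95 CPM in clone 2.5 and 3.12 and 3.02 CPM in clone 2.4, against 14.7 and 17.1 CPM in FoP wild type, and fell with a log2 change of -1.97 ± 0.28 (adjusted p = 0.000462).

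**Figure D4:**
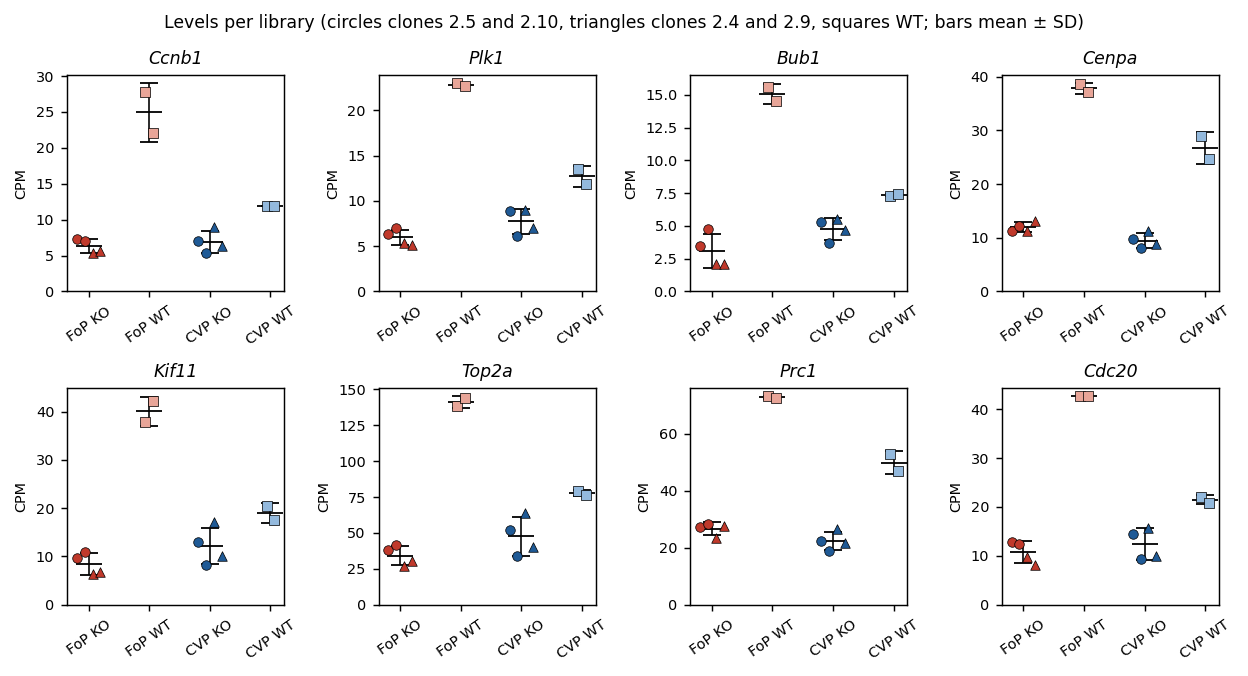
Level in CPM (y axis, from 0) of 8 of the genes in each library by line and genotype (x axis); circles are clones 2.5 and 2.10, triangles clones 2.4 and 2.9, squares wild type, and the bars give mean ± SD (n = 4 knock-out and 2 wild type libraries). For all 8 the FoP wild type squares lie above all other points, and the knock-out points of both lines lie below the wild type of their line.

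The kinetochore and checkpoint group split between the lines: all 11 genes fell in FoP, but 5 of 11 in CVP. Bub1, a checkpoint kinase that marks centromeres, had 3.5 and 4.76 CPM in clone 2.5 and 2.08 and 2.09 CPM in clone 2.4, against 15.6 and 14.5 CPM in FoP wild type. The CVP levels were 5.32 and 3.66 CPM in clone 2.10 and 5.49 and 4.66 CPM in clone 2.9, against 7.31 and 7.43 CPM in CVP wild type. Libraries of clone 2.4 were the lowest of all 12. Bub1 fell with a log2 change of -2.28 ± 0.28 (adjusted p = 0.000135) in FoP, the strongest fall of any member there, and its CVP value was -0.62 ± 0.28 (adjusted p = 0.0933). Cenpe, the kinetochore motor that brings chromosomes to the equator, had 11.0 and 8.47 CPM in clone 2.5 and 8.54 and 7.46 CPM in clone 2.4, against 43.1 and 41.9 CPM in FoP wild type. For CVP the values were 11.6 and 7.24 CPM in clone 2.10 and 13.4 and 9.997 CPM in clone 2.9, against 19.6 and 16.9 CPM in CVP wild type. Cenpe fell with log2 changes of -2.26 ± 0.20 (adjusted p = 2.33e-05) in FoP and -0.79 ± 0.20 (adjusted p = 0.00756) in CVP. Cenpa, the histone variant that marks centromeres, had 11.3 and 12.2 CPM in clone 2.5 and 11.2 and 13.2 CPM in clone 2.4, against 38.5 and 37.1 CPM in FoP wild type. CVP levels were 9.68 and 8.09 CPM in clone 2.10 and 11.2 and 8.89 CPM in clone 2.9, against 28.8 and 24.6 CPM in CVP wild type. Its log2 changes were -1.66 ± 0.11 (adjusted p = 2.75e-06) in FoP and -1.50 ± 0.11 (adjusted p = 1.49e-06) in CVP. Bub1b, the BubR1 protein of the checkpoint complex, had 11.8 and 10.9 CPM in clone 2.5 and 10.4 and 8.75 CPM in clone 2.4, against 43.2 and 45.3 CPM in FoP wild type. The values in CVP were 11.2 and 9.54 CPM in clone 2.10 and 13.8 and 10.1 CPM in clone 2.9, against 27.0 and 26.3 CPM in CVP wild type. The log2 changes of Bub1b were -2.08 ± 0.13 (adjusted p = 1.65e-06) in FoP and -1.25 ± 0.13 (adjusted p = 1.34e-05) in CVP. Mad2l1, which holds Cdc20 inactive, had the smallest change of the group in FoP, with -1.40 ± 0.08 (adjusted p = 1.34e-06) in FoP and -0.64 ± 0.08 (adjusted p = 6.22e-05) in CVP.

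The 4 subunits of the NDC80 complex, which ties kinetochores to microtubules, were not called in CVP. Neither was Cenpf, a large coiled-coil protein of the outer kinetochore, with -0.57 ± 0.28 (adjusted p = 0.117) in CVP beside -1.91 ± 0.27 (adjusted p = 0.000652) in FoP on the log2 scale. Ndc80 had 3.62 and 3.54 CPM in clone 2.5 and 2.84 and 2.03 CPM in clone 2.4, against 12.8 and 12.5 CPM in FoP wild type. In CVP it had 4.38 and 2.46 CPM in clone 2.10 and 4.31 and 3.28 CPM in clone 2.9, against 5.10 and 4.72 CPM in CVP wild type. The CVP groups did not overlap, but the first duplicates came close to wild type. Spc24 had 3.45 and 2.38 CPM in clone 2.10 and 4.40 and 3.01 CPM in clone 2.9, against 3.34 and 4.48 CPM in CVP wild type. Spc25 had 3.88 and 2.54 CPM in clone 2.10 and 4.81 and 3.12 CPM in clone 2.9, against 3.34 and 4.53 CPM in CVP wild type. For both the ranges overlapped. The log2 values in CVP were -0.44 ± 0.24 (adjusted p = 0.158) for Ndc80, -0.38 ± 0.21 (adjusted p = 0.168) for Nuf2, -0.24 ± 0.29 (adjusted p = 0.534) for Spc24 and -0.13 ± 0.28 (adjusted p = 0.726) for Spc25. In FoP these 4 genes fell, with log2 changes of -2.07, -1.96, -1.98 and -1.81, in that order. Ttk, the kinase that starts checkpoint signalling, had 3.10 and 3.12 CPM in clone 2.5 and 1.88 and 2.82 CPM in clone 2.4, against 12 and 12.5 CPM in FoP wild type. It had 4.05 and 2.58 CPM in clone 2.10 and 4.30 and 3.33 CPM in clone 2.9, against 5.18 and 5.34 CPM in CVP wild type, and its CVP fall of -0.56 ± 0.22 (adjusted p = 0.0484) was close to the threshold, beside -2.17 ± 0.21 (adjusted p = 2.05e-05) in FoP.

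In the chromosomal passenger complex, all 3 genes besides Aurkb fell in FoP and 2 fell in CVP. Cdca8 (borealin) averaged 7.12 ± 1.01 CPM in FoP knock-out libraries and 29.8 ± 0.312 CPM in FoP wild type libraries. Cdca8 fell with log2 changes of -2.07 ± 0.14 (adjusted p = 3.06e-06) in FoP and -0.83 ± 0.15 (adjusted p = 0.000516) in CVP. Birc5 (survivin) fell with a log2 change of -1.92 ± 0.24 (adjusted p = 0.000137) in FoP, and its CVP value was -0.52 ± 0.24 (adjusted p = 0.0981). Incenp, the scaffold of the complex, had 24.1 and 26.2 CPM in clone 2.5 and 21.9 and 23.7 CPM in clone 2.4, against 47.2 and 46.8 CPM in FoP wild type. The CVP libraries had 26.2 and 22.1 CPM in clone 2.10 and 27.8 and 24 CPM in clone 2.9, against 32.0 and 32.7 CPM in CVP wild type. These were the smallest changes of any member called in both lines, -0.97 ± 0.09 (adjusted p = 9.90e-06) in FoP and -0.37 ± 0.09 (adjusted p = 0.00392) in CVP, with no overlap between the groups.

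All 8 kinesins fell in FoP. In CVP 2 of 8 fell (25%, beside 22.9% of the genes tested), namely Kif23 with -0.76 ± 0.16 (adjusted p = 0.00247) and Kif18b with -0.84 ± 0.21 (adjusted p = 0.00612). Kif11, the motor that pushes spindle poles apart, had 9.71 and 11.0 CPM in clone 2.5 and 6.44 and 6.78 CPM in clone 2.4, against 37.9 and 42.2 CPM in FoP wild type. CVP values were 13.1 and 8.34 CPM in clone 2.10 and 17.1 and 10.2 CPM in clone 2.9, against 20.4 and 17.5 CPM in CVP wild type. Kif11 fell with a log2 change of -2.24 ± 0.27 (adjusted p = 0.000302) in FoP, and its CVP value was -0.64 ± 0.28 (adjusted p = 0.0881), with the first clone 2.9 library close to the lower wild type library. Kif15, which can share the work of Kif11, had 4.56 and 4.86 CPM in clone 2.5 and 3.05 and 3.22 CPM in clone 2.4, against 12.4 and 13.3 CPM in FoP wild type. Its CVP levels were 5.26 and 3.46 CPM in clone 2.10 and 7.43 and 5.05 CPM in clone 2.9, against 5.90 and 4.80 CPM in CVP wild type, so the groups overlapped. Its log2 values were -1.72 ± 0.25 (adjusted p = 0.000395) in FoP and -0.01 ± 0.26 (adjusted p = 0.972) in CVP. Kif20b, a kinesin of late cytokinesis, had 8.55 and 6.76 CPM in clone 2.10 and 9.75 and 8.49 CPM in clone 2.9, against 9.23 and 10.9 CPM in CVP wild type, which also overlapped, with a log2 value of -0.26 ± 0.17 (adjusted p = 0.227). In FoP Kif20b fell with a log2 change of -1.88 ± 0.16 (adjusted p = 8.67e-06). Kif23, the motor of the centralspindlin complex, averaged 11.6 ± 1.86 CPM in FoP knock-out libraries and 46.1 ± 0.819 CPM in FoP wild type libraries. The other CVP values were -0.54 for Kif2c, a microtubule depolymeriser, -0.49 for Kif4, a chromosome motor, and -0.52 for Kif20a, a motor of the central spindle, with adjusted p from 0.0717 to 0.0987. In FoP the log2 changes were -1.99 for Kif23, -1.99 for Kif18b, -2.03 for Kif2c, -1.92 for Kif4 and -1.81 for Kif20a.

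All 5 spindle proteins fell in both lines, with median log2 changes of -2.05 in FoP and -1.01 in CVP. Tpx2, which activates Aurka on the spindle, had 14.1 and 13.4 CPM in clone 2.5 and 11.6 and 13.1 CPM in clone 2.4, against 59 and 59.1 CPM in FoP wild type. In the CVP organoids it had 15.9 and 12.3 CPM in clone 2.10 and 20.8 and 13.5 CPM in clone 2.9, against 33.4 and 31.4 CPM in CVP wild type. Tpx2 fell with log2 changes of -2.18 ± 0.16 (adjusted p = 6.16e-06) in FoP and -1.05 ± 0.16 (adjusted p = 0.000253) in CVP. Prc1, which bundles microtubules of the central spindle, had 27.1 and 28.4 CPM in clone 2.5 and 23.4 and 27.8 CPM in clone 2.4, against 73.2 and 72.3 CPM in FoP wild type. Levels in CVP were 22.5 and 18.7 CPM in clone 2.10 and 26.5 and 21.7 CPM in clone 2.9, against 52.7 and 47 CPM in CVP wild type, and no knock-out library of either line reached wild type. Prc1 fell with a log2 change of -1.45 ± 0.11 (adjusted p = 4.69e-06) in FoP and -1.16 ± 0.11 (adjusted p = 7.31e-06) in CVP. Hmmr, a spindle assembly protein, had 11.4 and 10.5 CPM in clone 2.5 and 7.28 and 7.69 CPM in clone 2.4, against 42.1 and 38.4 CPM in FoP wild type. The CVP levels were 9.80 and 6.93 CPM in clone 2.10 and 12.6 and 8.78 CPM in clone 2.9, against 20.1 and 18.4 CPM in CVP wild type. The log2 changes of Hmmr were -2.13 ± 0.22 (adjusted p = 6.60e-05) in FoP and -1.01 ± 0.22 (adjusted p = 0.00311) in CVP. Nusap1, which binds microtubules near chromosomes, had 9.14 and 6.17 CPM in clone 2.10 and 11.8 and 9.14 CPM in clone 2.9, against 17.8 and 18.5 CPM in CVP wild type. The log2 changes of Nusap1 were -2.05 ± 0.18 (adjusted p = 1.79e-05) in FoP and -1.0 ± 0.18 (adjusted p = 0.000896) in CVP. Aspm, a protein of spindle poles, fell with a log2 change of -1.97 ± 0.18 (adjusted p = 1.10e-05) in FoP and -0.83 ± 0.18 (adjusted p = 0.00228) in CVP.

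Of the genes acting on chromosomes, Top2a, the topoisomerase that untangles DNA before segregation, had 37.8 and 41.4 CPM in clone 2.5 and 27.3 and 30.6 CPM in clone 2.4, against 138 and 144 CPM in FoP wild type. For CVP the values were 52.1 and 34.2 CPM in clone 2.10 and 64.2 and 40.0 CPM in clone 2.9, against 79.3 and 76.6 CPM in CVP wild type, so the first clone 2.9 library came nearest to wild type. Top2a fell with a log2 change of -2.04 ± 0.23 (adjusted p = 0.000260) in FoP and -0.71 ± 0.24 (adjusted p = 0.0337) in CVP. Mki67, which coats mitotic chromosomes and is the usual marker of cycling cells, had 27.7 and 31.3 CPM in clone 2.5 and 24.9 and 22.7 CPM in clone 2.4, against 103 and 105 CPM in FoP wild type. CVP levels were 41.9 and 25.3 CPM in clone 2.10 and 50.6 and 37.2 CPM in clone 2.9, against 48.8 and 51.9 CPM in CVP wild type, and the first clone 2.9 library lay between the wild type values. It fell with a log2 change of -1.96 ± 0.21 (adjusted p = 0.000180) in FoP, and its CVP value was -0.38 ± 0.22 (adjusted p = 0.194). Espl1 (separase), which cuts cohesin at anaphase, fell with a log2 change of -1.96 ± 0.24 (adjusted p = 0.000110) in FoP, and its CVP value was -0.51 ± 0.25 (adjusted p = 0.115).

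All 4 cytokinesis genes fell in both lines. Cep55, which recruits the abscission machinery, had 6.44 and 5.73 CPM in clone 2.5 and 5.21 and 3.89 CPM in clone 2.4, against 25 and 25.1 CPM in FoP wild type. The values in CVP were 5.29 and 4.52 CPM in clone 2.10 and 6.81 and 6.21 CPM in clone 2.9, against 10.6 and 11.5 CPM in CVP wild type. Cep55 fell with log2 changes of -2.23 ± 0.18 (adjusted p = 4.78e-06) in FoP and -0.95 ± 0.18 (adjusted p = 0.000819) in CVP. Anln, a scaffold of the contractile ring, averaged 26.5 ± 3.72 CPM in FoP knock-out libraries and 109.7 ± 10.8 CPM in FoP wild type libraries, and 26.2 ± 4.18 CPM in CVP knock-out libraries and 48.3 ± 4.81 CPM in CVP wild type libraries. Anln fell with log2 changes of -2.05 ± 0.15 (adjusted p = 8.27e-06) in FoP and -0.88 ± 0.15 (adjusted p = 0.000645) in CVP. Ect2, the exchange factor that activates RhoA at the cell equator, fell with a log2 change of -2.08 ± 0.15 (adjusted p = 3.24e-06) in FoP and -0.65 ± 0.15 (adjusted p = 0.00345) in CVP, and the values of Racgap1, its partner, were -1.75 ± 0.14 (adjusted p = 9.70e-06) in FoP and -0.67 ± 0.14 (adjusted p = 0.00255) in CVP.

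Of the genes tied to protein degradation, all 3 fell in FoP and 2 fell in CVP. Ube2c, the ubiquitin-conjugating enzyme of the anaphase-promoting complex, had 9.04 and 10.8 CPM in clone 2.5 and 5.52 and 8.08 CPM in clone 2.4, against 37.7 and 31.2 CPM in FoP wild type. In CVP it had 10.7 and 6.97 CPM in clone 2.10 and 12.5 and 7.98 CPM in clone 2.9, against 23.9 and 22.0 CPM in CVP wild type. The log2 changes of Ube2c were -2.04 ± 0.26 (adjusted p = 0.000291) in FoP and -1.27 ± 0.26 (adjusted p = 0.00242) in CVP. Cdc20, the activator of that complex, had 12.9 and 12.4 CPM in clone 2.5 and 9.68 and 8.08 CPM in clone 2.4, against 42.6 and 42.6 CPM in FoP wild type. The CVP libraries had 14.5 and 9.39 CPM in clone 2.10 and 15.8 and 9.98 CPM in clone 2.9, against 22.1 and 20.8 CPM in CVP wild type. Cdc20 fell with log2 changes of -1.99 ± 0.22 (adjusted p = 0.000129) in FoP and -0.79 ± 0.22 (adjusted p = 0.0146) in CVP. Cdca3, which acts in the degradation of Wee1, fell with a log2 change of -1.71 ± 0.23 (adjusted p = 0.000296) in FoP, and its CVP value was -0.51 ± 0.24 (adjusted p = 0.100). Per kb of exon (GENCODE M21), the highest mean levels over the 12 libraries were those of Cdc20 (9.86 CPM per kb), Ccnb2 (8.57), Top2a (7.08), Incenp (6.83) and Ube2c (5.98), and the lowest those of Kif15 (0.555) and Espl1 (0.564).

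Whether the knock-out effect differed between the lines was tested as the difference of the FoP and CVP effects. It was negative for all 47 genes and called for 41, with a median log2 difference of -1.23. Of the genes tested, 8.49% were called negative and 7.28% positive, with a median of -0.02. The largest log2 differences (± SE) were those of Pbk (-1.78 ± 0.42), Spc24 (-1.74 ± 0.42), Kif15 (-1.7 ± 0.37), Spc25 (-1.68 ± 0.40), Bub1 (-1.66 ± 0.41) and Ndc80 (-1.63 ± 0.35). They were followed by Kif20b (-1.62 ± 0.24), Ttk (-1.61 ± 0.31), Kif11 (-1.60 ± 0.41), Mki67 (-1.59 ± 0.32), Nuf2 (-1.58 ± 0.31) and Kif2c (-1.49 ± 0.34). The adjusted p of these 12 genes were 0.00166 to 0.0266. They include 6 kinetochore and checkpoint genes and 4 kinesins. The 6 genes not called were Cdc25c, Cdk1, Cenpa, Prc1, Ube2c and Aurka, with differences of -0.68, -0.59, -0.16, -0.29, -0.78 and -0.92, in that order. The count of 41 needs all wild type libraries in the fit. Without any 1 of them its group has 1 library, and fewer genes were called, among the 47 genes and among all genes tested. The median was then -1.32 without the first CVP wild type library and -1.21 without the second. It was -1.24 without the first FoP wild type library and -1.28 without the second. With duplicates summed, each wild type has 1 library and the calls were lost, as were those of all genes tested. The median of the 47 genes stayed at -1.24.

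The same difference can be read from the lines directly. Between wild types, 32 of the 47 genes were higher in FoP than in CVP and none was called lower, with a median log2 difference of 1.03. Of the genes tested, 3.77% were called higher and 2.91% lower, with a median of 0.01. All 47 genes had both FoP wild type libraries above both CVP wild type libraries. The share of all genes tested that did so was not counted, so this separation has no background to be read against. Ndc80 had 12.8 and 12.5 CPM in FoP wild type, against 5.10 and 4.72 CPM in CVP wild type, a log2 difference of 1.37 ± 0.29 (adjusted p = 0.0161). Kif15 had 12.4 and 13.3 CPM in FoP wild type, against 5.90 and 4.80 CPM in CVP wild type, with 1.27 ± 0.30 (adjusted p = 0.0301), and Nuf2 had 18.3 and 17.2 CPM in FoP wild type, against 6.90 and 8.05 CPM in CVP wild type, with 1.24 ± 0.25 (adjusted p = 0.0139). The next largest were Ttk and Cenpe (both 1.22), Kif2c (1.21), Anln and Cep55 (both 1.18), Aurkb (1.13), Kif20b (1.12), Kif4 (1.09) and Kif23 (1.08). Ube2c, with 0.59 ± 0.30 (adjusted p = 0.289), and Aurka, with 0.65 ± 0.24 (adjusted p = 0.129), were among the 15 not called. The count of 32 needs all 4 wild type libraries in the fit. Without any 1 of them its group has 1 library, and far fewer genes were called, among the 47 genes and among all genes tested. The median was then 1.00 without the first CVP wild type library and 0.99 without the second. It was 1.00 without either FoP wild type library. With duplicates summed the calls were lost for all genes tested, and the median of the 47 genes was 1.03.

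Between knock-outs, 1 gene was higher and 2 were lower in FoP than in CVP, with a median of -0.27, while 12.1% of the genes tested were called higher and 12.3% lower, with a median of -0.01. The higher one was Cenpa, with 12 ± 0.928 CPM in FoP knock-out libraries and 9.47 ± 1.34 CPM in CVP knock-out libraries (SD, n = 4 each) and a log2 difference of 0.34 ± 0.10 (adjusted p = 0.0253). The lower ones were Kif20b, with -0.51 ± 0.14 (adjusted p = 0.0196), and Ect2, with -0.40 ± 0.13 (adjusted p = 0.0384). The groups of Ect2 nearly touched, at 10.217 CPM in the highest FoP knock-out library and 10.219 CPM in the lowest CVP knock-out library. Those of Cenpa and Kif20b overlapped. For the other 44 genes the differences were not called, with values from -0.69 for Pbk to 0.26 for Prc1, which does not show that the levels were alike. The wild type and knock-out comparisons share no library, and both enter the difference of the effects.

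Set against the wild type of its line, each clone had lower levels. All 47 genes fell in clone 2.5 and all 47 in clone 2.4, against 18.1% and 17.3% of genes tested called lower. In CVP, 39 fell in clone 2.10 and 29 in clone 2.9, against 24.4% and 23.6%. The 29 genes called in clone 2.9 were all called in clone 2.10 as well; both clones are set against the same 2 wild type libraries. Between the CVP clones, none of the 47 genes was called in clone 2.10 against clone 2.9 by edgeR's quasi-likelihood test or by the Wald test of DESeq2. Of them, 5 had an unadjusted p below 0.05. The median was -0.21, and 2.89% of genes tested were called higher and 2.54% lower. Without the first clone 2.10 library 7 were called lower, and without the second clone 2.9 library 1 was.

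Between the FoP clones, 3 genes were higher in clone 2.5 than in clone 2.4 and none was called lower, with a median of 0.42, where 3.53% of genes tested were called higher and 3.72% lower. Bub1 had 3.5 and 4.76 CPM in clone 2.5, against 2.08 and 2.09 CPM in clone 2.4, a log2 difference of 0.98 ± 0.20 (adjusted p = 0.00730). Kif2c had 5.91 and 6.75 CPM in clone 2.5, against 3.83 and 3.42 CPM in clone 2.4, with 0.80 ± 0.16 (adjusted p = 0.00755), and Ect2 had 10.2 and 10.2 CPM in clone 2.5, against 6.87 and 7.80 CPM in clone 2.4, with 0.47 ± 0.12 (adjusted p = 0.0328). For all 3 both clone 2.5 libraries were above both clone 2.4 libraries. An unadjusted p below 0.05 was found for 22 of the 47 genes. The count of 3 was 0 without the second clone 2.4 library or the second clone 2.5 library, 5 without either clone 2.9 library and 9 without either clone 2.10 library.

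Other cell cycle genes are given by list, to be read beside the genes tested, of which 15.3% were lower and 13.5% higher in FoP, and 22.9% lower and 23.5% higher in CVP. Of 31 other genes of spindle, centrosome and cytokinesis, 27 fell in FoP and none was called higher, with a median log2 value of -1.47. In CVP 16 of them fell and 1 rose, with a median of -0.35. In FoP, Depdc1a fell with a log2 change of -2.39 ± 0.35 (adjusted p = 0.000351), Troap with one of -2.34 ± 0.31 (adjusted p = 0.000157) and Dlgap5, a spindle protein, with one of -2.18 ± 0.19 (adjusted p = 8.76e-06). In CVP, Prr11 fell with a log2 change of -1.05 ± 0.16 (adjusted p = 0.000215), Kif14, a motor of cytokinesis, with one of -0.98 ± 0.29 (adjusted p = 0.0164) and Kifc1, a minus-end motor, with one of -0.96 ± 0.19 (adjusted p = 0.00106). Of 35 other kinetochore and checkpoint genes, 27 fell and 1 rose in FoP (median -1.04), and 8 fell (22.9%) and 7 rose (20%) in CVP (median -0.19), shares near those of all genes tested. Ska3, a partner of the NDC80 complex, fell with a log2 change of -2.32 ± 0.25 (adjusted p = 3.65e-05) in FoP. In CVP, Cenpt, a centromere protein that recruits that complex, rose with a log2 change of 1.66 ± 0.17 (adjusted p = 8.62e-06), and Sgo2a, a protector of cohesin, fell with a log2 change of -1.29 ± 0.12 (adjusted p = 6.09e-06). Of 18 condensin and cohesin genes, 14 fell in FoP with none higher (median -0.62), and 7 fell and 1 rose in CVP (median -0.22). Ncaph of condensin fell with a log2 change of -1.98 ± 0.18 (adjusted p = 1.44e-05) in FoP and -0.93 ± 0.18 (adjusted p = 0.00104) in CVP.

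Of 38 genes of S phase and DNA replication, 32 fell in FoP and none was called higher, with a median of -0.67. Mcm10, which helps to start replication forks, fell with a log2 change of -2.02 ± 0.23 (adjusted p = 6.66e-05), Cdc45 of the replicative helicase with one of -1.92 ± 0.24 (adjusted p = 0.000108) and Pole, a DNA polymerase, with one of -1.85 ± 0.28 (adjusted p = 0.000597). In CVP 8 fell (21.1%) and 5 rose (13.2%), neither share above that of all genes tested, with a median of 0.16. There Orc1, of the origin recognition complex, rose with a log2 change of 1.77 ± 0.50 (adjusted p = 0.0113) at a low level, with 1.22 ± 0.354 CPM in CVP knock-out libraries and 0.356 ± 0.00666 CPM in CVP wild type libraries (SD, n = 4 and 2). Tyms, which makes thymidylate, rose with a log2 change of 0.92 ± 0.20 (adjusted p = 0.00188), and Pold1, a DNA polymerase, fell with a log2 change of -1.04 ± 0.08 (adjusted p = 1.26e-06). Of 27 genes of mitotic entry and exit, 12 fell and 3 rose in FoP (median -0.15), and 9 fell (33.3%) and 8 rose (29.6%) in CVP (median -0.03). In FoP Mastl, the Greatwall kinase, fell with a log2 change of -1.66 ± 0.19 (adjusted p = 7.63e-05) and Gtse1 with one of -1.29 ± 0.08 (adjusted p = 1.44e-06). In CVP Cdc25b fell with a log2 change of -1.0 ± 0.08 (adjusted p = 1.55e-06) and Wee1, the kinase that holds CDK1 inactive, with one of -0.92 ± 0.08 (adjusted p = 4.14e-06).

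Among 21 regulators of mitotic transcription, 14 fell and 1 rose in FoP, with a median of -0.35, and 7 fell (33.3%) and 5 rose (23.8%) in CVP, with a median of -0.23. Foxm1, the forkhead factor that drives G2 and mitotic genes, averaged 5.59 ± 0.942 CPM in FoP knock-out libraries and 20.6 ± 0.285 CPM in FoP wild type libraries, and fell with a log2 change of -1.88 ± 0.17 (adjusted p = 1.01e-05). E2f8 and E2f7, repressors of the E2F family, fell in FoP with a log2 change of -2.10 ± 0.27 (adjusted p = 0.000146) and -1.95 ± 0.34 (adjusted p = 0.00107). E2f2, an activator of that family, rose in CVP, with 12.3 ± 1.08 CPM in CVP knock-out libraries and 2.30 ± 0.346 CPM in CVP wild type libraries and a log2 value of 2.42 ± 0.22 (adjusted p = 4.65e-06), and it was also the 1 regulator called higher in FoP, with 0.82 ± 0.20 (adjusted p = 0.00948). That FoP value was chosen for naming after it was seen. Lin54, the subunit of the MuvB complex that binds CHR elements, fell with a log2 change of -0.82 ± 0.11 (adjusted p = 9.00e-05) in CVP. In FoP, Lin54 was at 15.6 to 19.6 CPM in knock-out libraries, against 30.4 and 33.4 CPM in wild type. Of 7 inhibitors of cyclin-dependent kinases, 5 fell and 2 rose in each line. Cdkn2a, whose locus encodes the INK4A and ARF proteins, averaged 41.6 ± 3.37 CPM in FoP knock-out libraries and 9.20 ± 0.990 CPM in FoP wild type libraries, and rose with a log2 change of 2.18 ± 0.11 (adjusted p = 3.59e-07). It averaged 44.5 ± 3.30 CPM in CVP knock-out libraries and 11.0 ± 1.23 CPM in CVP wild type libraries, and rose with a log2 change of 2.02 ± 0.11 (adjusted p = 1.66e-07). Cdkn1a fell with a log2 change of -1.05 ± 0.12 (adjusted p = 0.000114) in FoP, and Cdkn1c with one of -2.18 ± 0.21 (adjusted p = 7.16e-06) in CVP. These lists overlap in function with the 47 genes, and their counts are descriptions. Genes were named per line, so a gene named for 1 line can have changed in the other too. For example, Cdc25b, Wee1, Sgo2a, Pold1, Gtse1 and Cdkn1a were below wild type in every knock-out library of both lines.

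**Figure D5:**
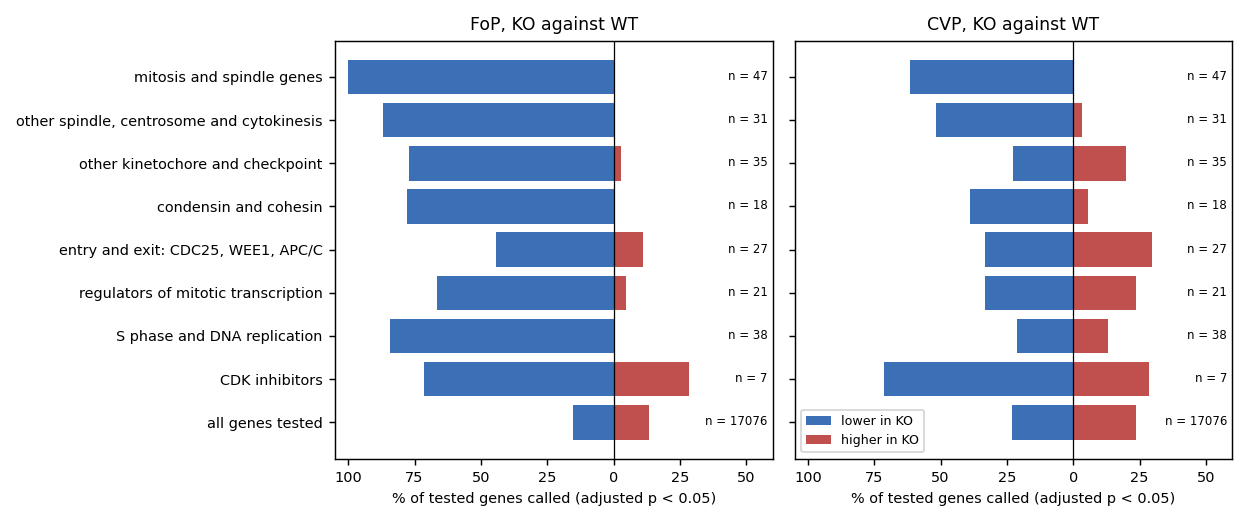
Percentage of tested genes called lower (blue, to the left) or higher (red, to the right) in knock-out against wild type (x axis) for the mitosis and spindle genes, for each of 7 lists of other cell cycle genes and for all genes tested (y axis, with the number tested), in FoP (left) and CVP (right). In FoP the blue bars of the mitosis and spindle genes and of all 7 other lists exceed the 15.3% of all genes. In CVP red bars appear in every list but the mitosis and spindle genes.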

How the data were processed

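RNA sequencing libraries of mouse tongue organoids were made from poly(A) RNA with TruSeq stranded mRNA kits, per the labels' protocols. The authors deposited raw counts per gene, and these were used for all 12 libraries. Per the submitters' processing notes, the authors used STAR, featureCounts and the build hg38, with no versions. The deposited symbols are mouse ones, and 53253 of 55367 match exactly 1 gene of GENCODE M21. The sources used here do not give the strand setting of the counting, so reads of overlapping genes cannot be separated. Counts of 2 were not fewer than counts of 1 in the table (20289 against 20007), so halved counts were tried.

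Genes were kept by filterByExpr over the 4 combinations of line and genotype (17076), scaled by TMM and fitted with edgeR 4.0.16 (R 4.3.3, robust quasi-likelihood test, 8 residual degrees of freedom, Benjamini-Hochberg adjustment, threshold 0.05). Clones were compared in a fit with each of the 4 clones and both wild types as a group (6 residual degrees of freedom). SE was approximated by dividing the log2 fold change by the square root of F. Values in the text are CPM of TMM-scaled library sizes. On simulated counts, 84 of 100 genes changed 2-fold and 97 of 100 changed 4-fold were recovered in CVP with 12 false calls among 16876, and 83 and 98 in FoP with 6. The simulated libraries were independent draws without clones, and few genes were changed. These numbers therefore do not show how often false calls arise with clones in duplicate.

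The 47 genes and all lists were chosen with earlier results of these data known. The genes given in full were the 12 called with the largest log2 change per comparison (values per library for up to 8), those with the 5 highest levels per kb of exon and exceptions to the main direction; the others are given to account for all 47. At most 3 called genes were named per other list and comparison. Duplicates of each such group differed beyond sampling noise (chi-square per degree of freedom 7.65 to 37.3). Alternatives were DESeq2 1.42.0 size factors and its Wald test, no filter, limma 3.58.1 voom with that group as block, duplicates summed, duplicate number as block, those 6 groups, halved counts, and each library or clone left out; leaving out both first or both second duplicates of the CVP clones was added after the data were seen.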

Additional observations from a re-analysis of the deposited data

Results flagged for a closer look

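The knock-out effect differed between FoP and CVP, by a test of the difference itself, for 41 of the 47 genes, beside 8.49% of the genes tested called negative. The count was lower without any 1 of the 4 wild type libraries, and the calls were lost with duplicates summed. The same held for all genes tested. The median of the 47 genes was -1.32 to -1.21 without any 1 wild type library and -1.24 with duplicates summed. Each difference was negative, the effect in FoP minus that in CVP. The log2 differences of the 12 largest were -1.78 for Pbk, -1.74 for Spc24, -1.7 for Kif15, -1.68 for Spc25, -1.66 for Bub1, -1.63 for Ndc80, -1.62 for Kif20b, -1.61 for Ttk, -1.60 for Kif11, -1.59 for Mki67, -1.58 for Nuf2 and -1.49 for Kif2c. The median log2 difference of FoP over CVP was -0.27 between knock-outs and 1.03 between wild types.

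Espl1 (separase) had 1 library far from the other 3 among the CVP knock-outs: the first clone 2.9 library was at 5.46 CPM, and the others were at 3.24 and 3.29 CPM in clone 2.10 and 3.49 CPM in clone 2.9. It was the 1 such library in 94 groups of 4 examined, where chance alone gives about 1 in 20 groups (5%).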

How the results depend on the processing

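The count of members called in FoP knock-out against wild type was 38 to 47 under all alternatives run, and in CVP 24 to 39 apart from 19 with duplicates summed (2 degrees of freedom for error), all in the same direction. With duplicates summed, each wild type has 1 library and fewer residual degrees of freedom remain. All calls for the difference of the effects and between wild types were then lost, those of the other genes tested included. Leaving out 1 library each gave 17 to 43 for the difference, 1 to 38 between wild types, 0 to 7 between clones 2.10 and 2.9 and 0 to 9 between clones 2.5 and 2.4. Between clones 2.10 and 2.9, 3 members were called with no filter. Between clones 2.5 and 2.4, 18 were called with no filter and 7 by the DESeq2 Wald test; the cause was not tested.

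Duplicate numbers were not taken as pairs, since deviations of equal numbers over all genes tested correlated at -0.121 to 0.285 (median -0.0402) and not over 0.1 in every pair of clones or wild types. The highest value was that of clones 2.10 and 2.9, where the first duplicate was also the higher one for 45 and 46 of the 47 genes. With the duplicate number as a replicate block the counts were 29 in CVP, 47 in FoP, 40 for the difference, 31 between wild types, 0 between clones 2.10 and 2.9 and 5 between clones 2.5 and 2.4.

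Over the 47 genes, no called log2 change reversed in FoP, in CVP, for the difference, between wild types or between FoP clones. In CVP, 4 genes that were not called changed sign. Without the second duplicates of both CVP clones the values were 0.10 for Pbk, 0.0050 for Spc24, 0.14 for Spc25 and 0.24 for Kif15. Without clone 2.10 they were 0.012 for Spc25 and 0.22 for Kif15, and leaving out 1 library each gave -0.33 to 0.10 for Spc25 and -0.22 to 0.14 for Kif15. Over called genes and alternatives, calls were lost 36 times in CVP (kept 718 times), 9 in FoP (1213), 194 for the difference (872), 185 between wild types (647) and 11 between FoP clones (40). Genes not called passed the threshold 46 times in CVP, 14 for the difference and 106 between wild types.

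Without a wild type library its group has 1 library, assumed to vary like the others, and with duplicates summed each wild type has 1. The share of all genes tested that were called also differed between the alternatives. Counts under an alternative are therefore not to be read beside the shares of the main fit. The members' lowest count was 94 in a library.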
